A study of Mus musculus with 6 samples.

Results

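The clustered histone genes are the rows of the deposited gene table whose symbol starts with Hist1h, Hist2h, Hist3h or Hist4h and whose category is protein coding. There were 68 of them among 50599 genes. A further 2 rows with such a symbol are not listed as protein coding and were left out. By the class of histone in the symbol, 6 are named for the linker histone H1, 19 for H2A, 18 for H2B, 12 for H3 and 13 for H4. The 19 include Hist1h2al, which RefSeq lists as a transcribed pseudogene. On the mm10 coordinates of the table, 54 members of the Hist1 cluster lie on chromosome 13 between 21715763 and 23934851. The 10 Hist2 members lie on chromosome 3 between 96219865 and 96270132, the 2 Hist3 members on chromosome 11 between 58948920 and 58956830, and the Hist4 member, Hist4h4, on chromosome 6 between 136801553 and 136804415. Hist1h2al carries a Hist1 symbol but lies apart, on chromosome 13 from 51202688 to 51203065, which is 27.3 Mb from the nearest other Hist1 member.

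These genes supply most of the histone protein that packages newly copied DNA. Pairs of H2A, H2B, H3 and H4 form the core of the nucleosome, and H1 binds the linker DNA between cores. The genes are known as replication dependent, because their transcripts are abundant mainly while DNA is being copied. Their mRNAs usually have no poly(A) tail: the transcript is cut just after a short conserved hairpin, the stem-loop, which is bound by the protein SLBP. Some of the genes also give longer, polyadenylated transcripts in cells that have stopped dividing. Some histones coded outside the clusters, such as H3f3b or H2afz, are made throughout the cell cycle from ordinary polyadenylated mRNAs.

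RNA came from RAW264.7, a mouse macrophage line, into which a retrovirus had brought an oncoprotein joined to an oestrogen receptor domain, with selection by hygromycin B at 70 µg/mL over 7 days. 4-hydroxytamoxifen (4-OHT) switches such fusions on. One group of 3 samples received 100 nM 4-OHT and the other group of 3 received the ethanol vehicle, with replicates lettered A, B and C. All samples were of day 3, all carried the construct, and all were without serum for the last 24 hours. The analysed samples include no cells without the construct that received 4-OHT. The labels do not say that replicates were separate cultures, so a p-value here speaks of the spread among these 6 samples, which may be technical. The series title names senescence induced by an oncogene as its subject.

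The mRNA library kit named in the labels captures RNA by its poly(A) tail. How much of each member's RNA carried a tail was not measured, so a different level and a different share with a tail cannot be told apart. Recovered reads came to between 11629150 and 15943722 per library, of which 18384 in all fell on the 68 members. Of each 1000000 reads of a library, the members together took 230.2, 226 and 187 in the vehicle libraries A, B and C. In the 4-OHT libraries they took 293, 247 and 253.

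The stem-loop was looked for in the transcript models of GENCODE M21 on the transcribed strand, as its 16-base consensus with 3 free positions. It was present in 42 of the 68 members and in 3 of 21834 other coding genes (0.0137%). Of those 42 members, 26 have the form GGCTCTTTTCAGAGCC and 7 the form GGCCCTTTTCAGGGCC. Of the 26 members without a match, 11 have models that hold coding sequence only and so stop before the hairpin. The hairpins of the members that were called higher or lower and have a match are printed here with 5 bases on each side, since they are what separates these models from other mRNAs. Capitals mark the match.
Hist1h1c: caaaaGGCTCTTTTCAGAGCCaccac
Hist1h1d: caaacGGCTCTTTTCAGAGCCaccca
Hist1h2ad: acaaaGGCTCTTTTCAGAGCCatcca
Hist3h2a: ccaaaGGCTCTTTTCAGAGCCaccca
Hist1h3d: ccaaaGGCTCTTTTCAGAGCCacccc
Hist2h3c2: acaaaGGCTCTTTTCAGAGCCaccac
Hist1h4i: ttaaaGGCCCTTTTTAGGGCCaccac
The H1, H2A and H3 genes in these lines hold the same 16 letters and differ in the flanks, while Hist1h4i has another stem. The 3 other called members, Hist1h2bc, Hist2h2be and Hist1h2al, have no match in their models, also when 1 mismatch was allowed.

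With 4-OHT, the summed H2B, H2A and H3 transcripts were higher, and the linker histone transcript with the most reads, Hist1h1c, was lower. Values are normalized counts, that is gene counts divided by the size factor of the library. Summed over all 68 members they came to 2609, 2637 and 2145 with vehicle and to 4030.2, 3565 and 3677 with 4-OHT, in the order of the letters here and in what follows. The groups did not overlap, and the mean was 1.53-fold higher with 4-OHT. By their own means, 25 members were higher with 4-OHT and 33 were lower, so the sum does not stand for each member. These are bulk samples, so more cells with such transcripts and more RNA per cell cannot be told apart.

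By class, the sums went in both directions. H1 summed to 1436, 1396 and 1125 with vehicle and 1116, 969 and 1102 with 4-OHT, 0.805 times the vehicle mean. H2A summed to 176, 186 and 144 with vehicle and 513, 412 and 477 with 4-OHT, 2.77-fold. Most of these reads are of Hist1h2al, a locus that RefSeq lists as a transcribed pseudogene. H2B summed to 744, 762 and 664 with vehicle and 2029, 1796 and 1755 with 4-OHT, 2.57-fold. In these classes the groups lay apart, with H1 lower and the others higher with 4-OHT. H3 summed to 94.5, 107 and 86.5 with vehicle and 168, 193 and 167 with 4-OHT, 1.83-fold and also apart. Of the 797 H3 reads, 499 are of Hist2h3c2. By their means, 5 H3 genes were higher with 4-OHT and 6 were lower, so the sum does not stand for the class. H4 summed to 159, 186 and 125 with vehicle and 205, 196 and 177 with 4-OHT, and here the groups overlapped. Without Hist1h2al, the H2A sums were 105, 92.0 and 68.5 with vehicle and 148, 114 and 113 with 4-OHT, 1.41-fold. Without Hist1h2bc and Hist2h2be, the H2B sums were 101, 132 and 86.5 with vehicle and 140.5, 125 and 89.5 with 4-OHT, and the groups overlapped. In all, 6 H2B genes had a higher mean with 4-OHT and 9 a lower one. These sums are descriptions without a test, and few genes carry them: 4 members hold 80.5% of all member reads and 12 hold 92.4%.

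**Figure D1:**
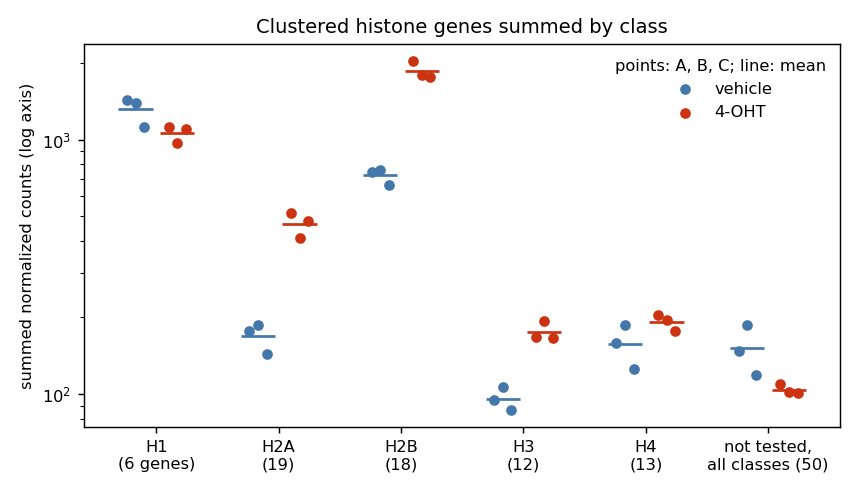
Summed normalized counts (log axis) of the clustered histone genes by histone class, and of the 50 members with too few reads for a test, one point per library and a line at the mean of each group. The H2A, H2B and H3 points of 4-OHT lie above those of vehicle, the H1 points and those of the untested members lie below, and the H4 points overlap.

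Of the 68 members, 58 had at least 1 read and 18 had enough reads to be tested. The other 50 include 10 listed at 0 in every library. Over all genes, limma on log2(value + 1) called 65.5% of 11828 tested genes at an adjusted p under 0.05, with 33.0% higher and 32.5% lower. Of the 18 tested members, 8 were called higher, 2 lower and 8 were not called. The called share, 10 of 18, is thus not above the background, and more of the calls were higher. At least 2-fold, 6 members were higher and 0 lower, beside 10.1% and 2.87% of all tested genes. The groups lay apart in 11 of the 18, beside 70.7% of all tested genes. The median log2 change was 0.59 over the 18 and -0.018 over all tested genes. A gene can pass the filter through the group in which it is high, as Hist1h2ad did. These counts therefore describe the tested members and not all 68.

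**Figure D2:**
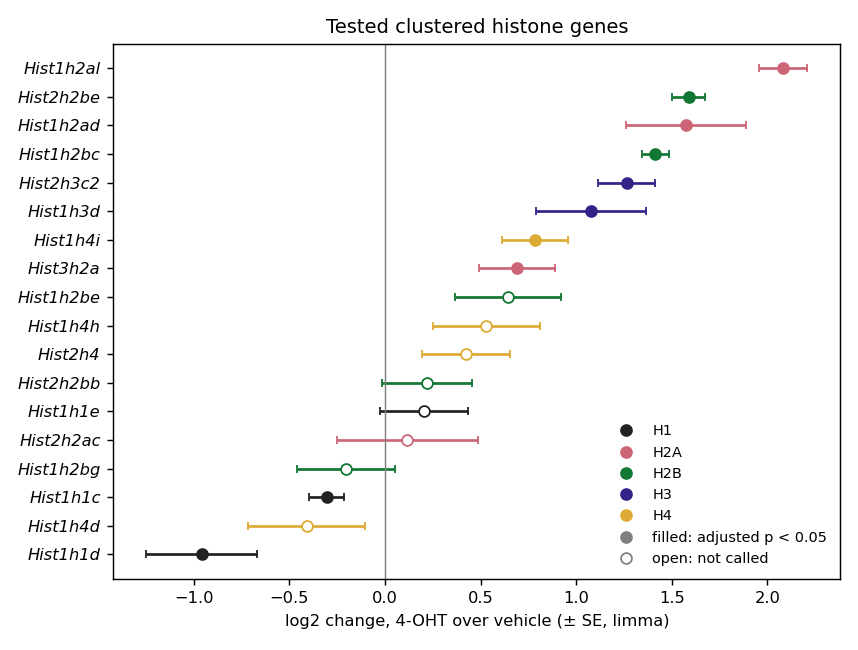
Log2 change of 4-OHT over vehicle for the 18 tested members, with the standard error of the limma fit, coloured by histone class; filled points were called and open points were not. Hist1h2al stands at the top with 2.08 and Hist1h1d at the bottom with -0.96.

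Among the linker histones, Hist1h1c (ENSMUSG00000036181.2, chromosome 13 from 23738808 to 23740367) had the most reads of any member, 6843. It codes for H1.2, one of the main somatic linker histones. Its normalized counts were 1355, 1308 and 1050.3 with vehicle and 1042, 908 and 1045 with 4-OHT. The highest 4-OHT value lay just under the lowest vehicle value. The mean was 1238 ± 164 (SD, n = 3) against 998 ± 78.5, a log2 change of -0.30 ± 0.09 with a limma adjusted p of 0.0127. The adjusted p was 0.0691 without vehicle A, 0.0585 without vehicle B and 0.0686 without 4-OHT B, so this call rests on single libraries.

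Hist1h1d, which codes for H1.3, was the other member called lower. It had 31.2, 34.6 and 26.7 with vehicle and 22.7, 9.83 and 15.9 with 4-OHT, with no overlap. The log2 change was -0.96 ± 0.29 (limma adjusted p = 0.0124), and without vehicle B the adjusted p was 0.0510. In the authors' deposited DESeq2 results the adjusted p of Hist1h1d was 0.0539, so it is not called there. Hist1h1e, which codes for H1.4, had 20.5, 33.6 and 32.4 with vehicle and 35.1, 35.0 and 28.3 with 4-OHT. The groups overlapped and it was not called (limma adjusted p = 0.448). Hist1h1b, which codes for H1.5, had too few reads for the test, 47 with vehicle and 20 with 4-OHT. The ratio of its counts, scaled for library size, was 0.544, with an exact 95% interval of 0.305 to 0.935 that covers counting error only, and its groups overlapped. Without Hist1h1c, the H1 class summed to 80.9, 88.0 and 74.2 with vehicle and 73.6, 61.2 and 56.7 with 4-OHT.

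Among H2A genes, 3 of 4 tested members were called higher and 0 lower. Of these, Hist1h2ad passed the filter only through the 4-OHT libraries, so this share is not a result about the class. Hist1h2al (ENSMUSG00000091383.1) had the largest log2 change of the 18 tested members. Its normalized counts were 71.1, 94.0 and 75.7 with vehicle and 365, 298 and 364 with 4-OHT. Every 4-OHT library was far above every vehicle library. The mean was 80.3 ± 12.1 against 342 ± 38.2, 4.26-fold, a log2 change of 2.08 ± 0.13 (limma adjusted p = 8.29e-08). It is a gene model of a single exon, RefSeq lists the locus as a transcribed pseudogene, and in GENCODE M21 a miRNA model, Gm44341, overlaps it on the other strand. Of its 75-base windows, 54.3% occur in no other gene model.

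Hist3h2a, the H2A gene of the small Hist3 cluster, had 51.7, 33.6 and 36.0 with vehicle and 78.2, 60.1 and 57.8 with 4-OHT. The groups were apart, with a log2 change of 0.69 ± 0.20 (limma adjusted p = 0.00950). Scaled to library totals, the change was 0.39 with an adjusted p of 0.0831. In GENCODE M21 its model overlaps Trim17, an E3 ligase gene on the same strand, so its reads are uncertain. Hist1h2ad had 12.7, 5.93 and 7.21 with vehicle and 26.1, 32.8 and 21.5 with 4-OHT, and every 4-OHT value was higher. Its log2 change was 1.58 ± 0.31 (limma adjusted p = 0.000949), from 101 reads in all, 29 with vehicle and 72 with 4-OHT. The gene passed the filter through the 4-OHT libraries, in which it is high, so its being tested and its call are tied. Only 34.5% of the windows of the Hist1h2ad model occur in no other gene model, so these reads are uncertain as well. Whether reads of other genes were counted for it was not tested. Hist2h2ac had 8.77, 17.8 and 9.37 with vehicle and 19.3, 8.74 and 11.3 with 4-OHT. Its groups overlapped and it was not called (limma adjusted p = 0.792).

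Among H2B genes, 2 of 5 tested members were called higher, and they hold most H2B reads. Hist1h2bc (ENSMUSG00000018102.4, chromosome 13 from 23684199 to 23692488) is a spliced model on the plus strand. It had 340.1, 363 and 319 normalized counts with vehicle and 967, 854 and 908 with 4-OHT. The spread within each group was small beside the distance between groups. The mean was 341 ± 21.8 against 909.8 ± 56.6, 2.67-fold, with a log2 change of 1.41 ± 0.07 (limma adjusted p = 1.67e-08).

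Hist2h2be (ENSMUSG00000068854.7, chromosome 3 from 96221119 to 96223738) is a model of a single exon on the plus strand. It had 302, 267 and 258 with vehicle and 921, 817 and 757 with 4-OHT. Again the lowest 4-OHT library was well above the highest vehicle library. The mean was 276 ± 23.3 against 832 ± 82.9, 3.02-fold, with a log2 change of 1.59 ± 0.09 (limma adjusted p = 3.19e-08). None of its 75-base windows occurs in another gene model, so its reads can be placed.

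The 3 other tested H2B genes were not called. Hist1h2be had 31.2, 42.5 and 25.2 with vehicle and 67.96, 58.98 and 32.9 with 4-OHT. The 4-OHT C library lay inside the vehicle range, and the log2 change was 0.64 ± 0.28 (limma adjusted p = 0.0593). Without 4-OHT C it was called, with an adjusted p of 0.00445, and edgeR on recovered reads gave 0.0371. In GENCODE M21 its model overlaps Hist1h1e on the same strand. The deposited spans do not overlap, since Hist1h2be ends at 23621124 and Hist1h1e starts at 23621755. Whether reads of these 2 genes were mixed was not tested. Hist1h2bg had a log2 change of -0.20 ± 0.26 (limma adjusted p = 0.507) and Hist2h2bb one of 0.22 ± 0.24 (0.432), both with overlapping groups. Every window of the Hist2h2bb model is also found in another gene model, so that its reads are uncertain.

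Both tested H3 genes were called higher. Hist2h3c2 had 56.5, 43.5 and 50.5 with vehicle and 128, 133 and 104 with 4-OHT, with the groups well apart. Its log2 change was 1.26 ± 0.15 (limma adjusted p = 1.99e-05). Only 37.4% of the windows of the Hist2h3c2 model occur in no other gene model, so its reads are uncertain. Whether reads of other genes were counted for it was not tested. Hist1h3d had 13.6, 22.7 and 12.3 with vehicle and 24.9, 36.1 and 44.2 with 4-OHT. The lowest 4-OHT value lay a little over the highest vehicle value, and the log2 change was 1.08 ± 0.29 (limma adjusted p = 0.00640). Its GENCODE M21 model has 1249 bases, and 77.9% of its windows occur in no other gene model. The deposited span has 560 bases and the share within it was not measured, so the reads of Hist1h3d are uncertain too. The other 10 H3 genes had too few reads for the test.

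Of 4 tested H4 genes, Hist1h4i was called. It had 63.3, 64.3 and 42.5 with vehicle and 95.1, 104 and 91.8 with 4-OHT, all 4-OHT values being higher. The log2 change was 0.78 ± 0.17 (limma adjusted p = 0.00174). Hist2h4 had 31.2, 30.7 and 19.5 with vehicle and 38.5, 39.3 and 30.6 with 4-OHT, overlapping by a small margin, and was not called (limma adjusted p = 0.122). Hist1h4h had groups apart, 12.7, 8.90 and 11.5 against 20.4, 14.2 and 14.7, without being called (limma adjusted p = 0.114). Hist1h4d had overlapping groups and a log2 change of -0.41 ± 0.30 (limma adjusted p = 0.256).

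**Figure D3:**
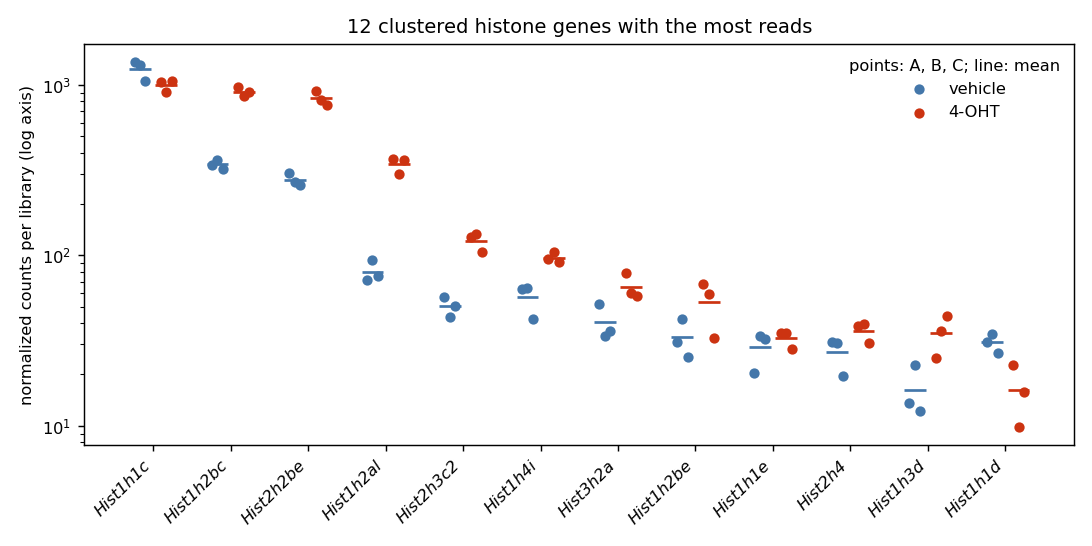
Normalized counts (log axis) of the 12 members with the most reads in each library, with a line at the mean of the group. Hist1h2bc, Hist2h2be and Hist1h2al show the widest distance between vehicle and 4-OHT, Hist1h1c and Hist1h1d are lower with 4-OHT, and Hist1h2be, Hist1h1e and Hist2h4 overlap.

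Levels of different genes can be compared only per length. Per kilobase of model, mean normalized counts with vehicle were 793 for Hist1h1c, 295 for Hist1h2bc, 212 for Hist1h2al and 105 for Hist2h2be. With 4-OHT they were 905 for Hist1h2al, 787 for Hist1h2bc, 640 for Hist1h1c and 317 for Hist2h2be. Hist1h1c thus went from the highest of these 4 levels per kilobase to the third.

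The members with too few reads for the test were lower as a sum. The 50 of them summed to 147, 187 and 119 normalized counts with vehicle and to 110, 102 and 101 with 4-OHT, without overlap. Their scaled count ratio was 0.706, with an exact 95% interval of 0.608 to 0.819 for counting error only. Of the 40 that had a read, 29 had a lower mean with 4-OHT and 11 a higher one. Of the 16 with 20 or more reads, 14 had a lower mean and 2 a higher one. The vehicle B library was the highest in this sum. A member with enough reads in either group leaves this set, so the filter shaped the set on the same values. How many of the other genes below the filter were lower was not counted. These counts are therefore a description of the set only.

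Single values in this set are small. Hist1h4f, an H4 gene, had 4.87, 6.92 and 7.93 with vehicle and 1.13, 1.09 and 1.13 with 4-OHT, and each 4-OHT value stands for 1 read. Hist1h3f, an H3 gene, had 5.85, 4.94 and 5.05 with vehicle and 0, 1.09 and 3.40 with 4-OHT. Hist1h3e, another H3 gene, had 22 reads with vehicle and 6 with 4-OHT, a ratio of 0.348 (0.116 to 0.886), but its groups overlapped. Hist1h1a, which codes for H1.1, and Hist1h2bh had ratios of 1.01 (0.524 to 1.93) and 1.12 (0.505 to 2.44), so at this depth no difference was detectable. With no filter on low reads, limma also called Hist1h4f and Hist1h3f lower, and Hist2h2ab higher from 2 and 12 reads.

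The members differ in how far the model goes on past the stem-loop. In 10 members the deposited span holds 300 or more bases after it, in 30 fewer, and in 28 it holds no stem-loop. Normalized counts of the members without one summed to 821, 841 and 727 with vehicle and to 2336, 2043 and 2101 with 4-OHT, 2.71-fold and without overlap. This sum is mainly Hist1h2bc, Hist2h2be and Hist1h2al. The 10 members with a long stretch summed to 1605, 1551 and 1239 with vehicle and 1462, 1313 and 1371 with 4-OHT, mostly Hist1h1c. The 30 with a short stretch summed to 183, 245 and 178 with vehicle and 232, 209.7 and 204 with 4-OHT. In both of these sets the groups overlapped. Per kilobase of model, the median level among the 10 with a long stretch was 12.2 normalized counts with vehicle and 17.1 with 4-OHT. Among the 30 with a short one it was 5.56 and 5.08. A poly(A) signal, AATAAA or ATTAAA in the last 50 bases, closes the GENCODE M21 model of 17 of the 68 members and of 78.0% of other coding genes. Only 12 of these 17 have the same span in the deposited table, so for the others the deposited span may end elsewhere.

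Many members share sequence with each other, which limits what reads can be assigned. Of the 75-base windows of each model, under 13% are unique to it in 13 members, and 8 of these are listed at 0, among them Hist2h2aa1, Hist2h2aa2, Hist2h3c1 and Hist1h4m. For these 8 a 0 may stand for reads that fit several genes, which was not tested. The rest of the 13 have reads, among them Hist2h2bb, with 0% of windows to itself and 124 reads. The other 2 at 0, Hist1h2ba and Hist1h2aa, code for H2B and H2A forms known from the testis and have 66.8% and 82.6% of windows to themselves. They are a divergent pair of neighbours.

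**Figure D4:**
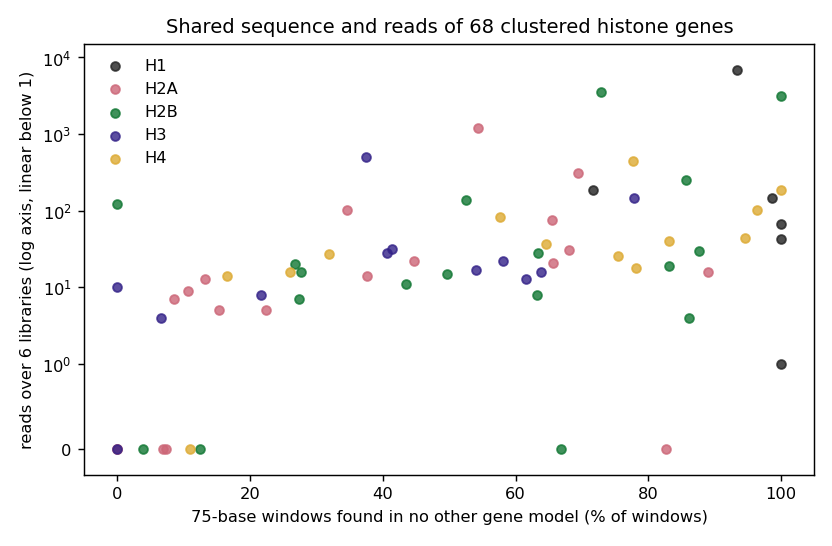
Reads over the 6 libraries (log axis, linear below 1) against the share of 75-base windows found in no other gene model, one point per member, coloured by histone class. Of the 10 members at 0 reads, 8 lie at under 13% of unshared windows.

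Neighbouring members are often divergent, sharing a short stretch between their starts, and 13 such pairs were found within 1000 bases. In 3 pairs both members were at 0, and 3 pairs held a member that was called. These 3 are given as mean normalized counts per kilobase of model. Hist1h2ac and Hist1h2bc start 250 bases apart, and Hist1h2ac had 5.32 with vehicle and 6.35 with 4-OHT, beside 295 and 787 for Hist1h2bc. Hist2h2ac and Hist2h2be start 238 bases apart, with 23.0 and 25.2 per kilobase for the one and 105 and 317 for the other. Hist1h2bf had 4.61 and 3.22 per kilobase, and its partner Hist1h2ad had 18.6 and 57.9. Hist1h2bg, which was tested and not called, had 51.5 and 44.6 per kilobase, and its partner Hist1h2ae had 10.4 and 4.08. Some other pairs had low levels on both sides, such as Hist1h2ah with 2.79 and 2.80 per kilobase and Hist1h2bk with 1.89 and 3.09, from 7 reads each.

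The 2 stretches that lead to Hist1h2bc and Hist2h2be are shown because these genes had the largest H2B counts beside partners with few reads. They are the RefSeq promoter windows of the partners (GRCm38.p6), from 250 bases before to 50 after the partner's start, on the partner's minus strand, so the H2B gene begins near the left end and runs leftward. Hist1h2ac is at chr13:23683910-23684209 and Hist2h2ac at chr3:96220831-96221130. Capitals mark 4 motifs on either strand. They are the CCAAT box, the TATAAA form of the TATA box, the octamer ATTTGCAT, which Oct-1 binds, and the AAACAC motif of H1 promoters.
Hist1h2ac: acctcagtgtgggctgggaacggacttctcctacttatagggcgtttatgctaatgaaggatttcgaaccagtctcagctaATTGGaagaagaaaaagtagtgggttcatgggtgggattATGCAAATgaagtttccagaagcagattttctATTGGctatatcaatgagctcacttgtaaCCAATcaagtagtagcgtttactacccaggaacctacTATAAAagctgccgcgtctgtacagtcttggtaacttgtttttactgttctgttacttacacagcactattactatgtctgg
Hist2h2ac: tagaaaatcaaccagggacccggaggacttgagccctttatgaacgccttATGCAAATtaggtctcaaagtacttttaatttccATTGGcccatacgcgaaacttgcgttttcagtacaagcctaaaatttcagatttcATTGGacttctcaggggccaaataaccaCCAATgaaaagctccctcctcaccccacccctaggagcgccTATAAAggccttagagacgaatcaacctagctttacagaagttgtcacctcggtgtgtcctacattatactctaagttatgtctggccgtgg
Both windows hold TATAAA near the H2A start, the octamer, and CCAAT on both strands. RefSeq promoters were matched for 61 members. CCAAT was in 85.2% of them and in 37.9% of all 27025 promoters, and TATAAA in 57.4% and 14.2%. The octamer was in 13 of the 61, 7 H2A and 6 H2B genes, and in 1.75% of all promoters. AAACAC was in 6 of 6 H1 promoters and in 16.4% of all promoters. A match is a description of letters and not a bound site.

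Genes listed for histone transcription and mRNA processing moved in both directions. Of 21 such genes listed, 20 were tested, of which 2 were called higher, 7 lower and 11 were not called, with a median log2 change of -0.09. Scaled to library totals, 1 was higher and 16 lower. Slbp, which binds the stem-loop, had a mean of 574 ± 30.1 with vehicle and 590 ± 22.1 with 4-OHT (limma adjusted p = 0.605). Npat, the activator of clustered histone transcription, had 485 and 432 (0.0433) and was called lower, as was Lsm11, a protein of the U7 particle that guides cleavage, with 150.3 and 102 (0.00346). Its partner Lsm10 had 122 and 137 (0.219), and Casp8ap2 (FLASH), which joins the cleavage complex, had 386 and 365 (0.382). Cpsf3, the nuclease that makes the cut, fell from 1391 to 932 (limma adjusted p = 1.02e-06), and Cstf2, a cleavage and polyadenylation factor, fell from 1276 to 825 (1.22e-06). Zcchc6, a terminal uridylyltransferase, rose from 933 to 1491 (4.95e-07). Ncbp1, of the cap-binding complex, rose from 1540 to 2059 (1.94e-05).

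All 23 genes on the list of histone chaperones and importers were tested and called, 5 higher and 18 lower, with a median log2 change of -0.35. Asf1b, which hands over H3 and H4 during replication, fell from 485 ± 16.3 to 272 ± 10.3 (limma adjusted p = 8.64e-07). The chromatin assembly factor subunits Chaf1a and Chaf1b fell from 743 to 507 and from 420 to 283. Set, a chaperone, fell from 1895 to 1069 (9.54e-08), whereas Ubn1, of the H3.3 complex, rose from 936 to 1583 (2.89e-07). Of 18 genes for DNA replication, 16 were called lower, 1 was called higher and Cdt1 was not called. Mcm6, a helicase subunit, fell from 2015 to 1149 (limma adjusted p = 9.53e-08).

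Of 18 histone genes outside the clusters, 10 were tested, of which 1 was called higher, 6 lower and 3 were not called. H2afx fell from 640 ± 29.4 to 317 ± 13.7 (limma adjusted p = 1.52e-07), H2afz from 275 to 172 (0.000162), Cenpa, the centromeric H3, from 567 to 314 (3.47e-06), and H1f0, the linker histone of resting cells, from 1857 to 1349 (5.44e-05). H3f3b, which codes for H3.3, rose from 5471 ± 402 to 6979 ± 423 (limma adjusted p = 0.000694), and it was not called when scaled to library totals. H3f3a, the other H3.3 gene, had 1033 and 972 (0.262). The lists were read by these counts beside the 33.0% higher and 32.5% lower of all tested genes.

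Library facts touch all of these values. Deposited totals were between 11.3 and 11.7 with vehicle and between 13.8 and 14.5 with 4-OHT, in units of 1000000,, and scaling to library totals lowered the median log2 change of all genes by 0.30. Under that scaling 7 members were called higher and 3 lower, the third being Hist1h4d. Of 8 tested macrophage markers 4 were called higher and 4 lower, with Csf1r at means of 17096 with vehicle and 10437 with 4-OHT and Cd68 at 9902 and 13108. Mertk, another such marker, had 7 reads in all. Summed fibroblast markers were between 2.16 and 6.92 with vehicle and 2.27 and 8.74 with 4-OHT, and lymphocyte markers between 1.95 and 7.21 and between 0 and 3.40. Summed epithelial and endothelial markers were between 1.95 and 7.21 with vehicle and 62.3 and 90.7 with 4-OHT. Of these 8 genes 2 were tested, Kdr and Cdh5, and both were called higher. Kdr had 6 reads with vehicle and 93 with 4-OHT, and Cdh5 had 10 and 77. Both thus passed the filter through the group in which they are high, so a share called among the tested ones has no meaning here. Pecam1, too low to be tested, had 1 read with vehicle and 21 with 4-OHT, while Krt8 and Krt18 were at 0. Whether they have a part in the histone values was not tested.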

How the data were processed

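Messenger RNA libraries of 3 vehicle and 3 4-OHT samples were sequenced to about 20 M single-end reads each from 1000 ng of RNA with 9 PCR cycles, per the labels. Per the submitters' processing notes, the build was GRCm38 (mm10) and the tools included STAR 2.5.1b, RSEM, DESeq2 1.18.1, Trimmomatic 0.35 and bcl2fastq 2.20. Annotation, strand setting and treatment of reads that fit several genes are not given in the sources used here. The deposited signal per gene is a gene count that the authors divided by a size factor, as its values show: 100% are whole multiples of one step per library within 1e-06, and dividing by it gave whole reads. In vehicle B the step is close to 1, so the edgeR fit was repeated with that library left out. The deposited log2 fold changes, their standard errors (score) and the p-values are the authors' own, per the file headers; at an adjusted p of 0.05 they call 8 members higher and 1 lower of 53 with a value.

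limma 3.58.1 in R 4.3.3 was fitted to log2(value + 1) with a mean-variance trend, group as the only term, and Benjamini-Hochberg adjustment at 0.05 (two-sided) over the 11828 genes that passed edgeR 4.0.16 filterByExpr (minimum count 10). It was checked on simulated counts. DESeq2 1.42.0 and edgeR were alternatives. Intervals of count ratios are exact binomial at 95% and cover counting error only. Between replicates, chi-square per degree of freedom was 3.07 to 12.2, so all 6 libraries were kept apart. The members and lists were chosen with earlier results of these data known. Every tested member could be named, the 12 with the most reads in full, of the others those with 20 or more reads, and of each list up to 6 genes with the smallest p plus fixed names. Hist2h2ab, Hist1h2ac, Hist1h2bf and the members listed at 0 were named after their values were seen. GENCODE M21 gave transcript models: 66 members matched by ID, 46 with the same span. Where a single-exon model differed, the deposited span was the length used. The level of the gene used in the construct is not reported here.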

Additional observations from a re-analysis of the deposited data

How the results depend on the processing

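The calls of Hist1h2bc, Hist2h2be, Hist1h2al, Hist2h3c2, Hist1h4i, Hist1h3d and Hist1h2ad kept their direction and their side of the threshold in the 16 alternatives run. Between 7 and 9 members were called higher in these, and 8 to 9 when 1 library was left out. Members called lower numbered 4 with no filter on low reads, 0 by edgeR with vehicle library B left out, and 0 to 2 when 1 library was left out, without vehicle B being the lowest. Of all genes, scaling to library totals called 2259 higher and 6549 lower, and leaving out 1 library gave 3601 to 3940 higher and 3378 to 3870 lower. Under that scaling, which by construction lowers every log2 change, the list for histone transcription and mRNA processing gave 1 higher and 16 lower. The lists gave 2 higher for chaperones and 0 higher for histones outside the clusters. Log2 changes that turned sign belonged to members that were not called: under that scaling Hist1h1e gave -0.091, Hist2h2bb -0.072 and Hist2h2ac -0.16. When 1 library was left out, Hist1h1e ranged from -0.016 (without vehicle A) to 0.33 and Hist2h2ac from -0.18 (without 4-OHT A) to 0.42, also below 0 without vehicle A (-0.054) and without vehicle C (-0.011). The cause was not tested.

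Samples of the same letter correlated by 0.109, 0.0363 and 0.120 in their deviations. The labels do not say what the letters mark, and the correlations were not all over 0.1, so the letters were not used as pairs. Each library correlated best with its own letter, a hint from the data and not from the design. With the replicate block, 9 members were called higher and 2 lower, the added one being Hist1h2be, and 4004 and 3968 of all genes. At this depth 50 members could not be tested.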
